A study of Mus musculus with 6 samples.

Results

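Mitochondria make a few proteins of the respiratory chain on ribosomes of their own and import all others from the cytosol. The mitochondrial ribosome pairs RNAs encoded in the mitochondrial genome with proteins that are encoded in the nucleus, made in the cytosol and imported. Precursors are recognised and passed through the outer membrane by the TOM complex, enter the matrix or the inner membrane through TIM complexes, and lose their targeting sequence to a processing peptidase. The genes described here are the protein-coding genes of the deposited table whose symbols mark them as mitochondrial ribosomal proteins (MRPL or MRPS with a number), TIMM or TOMM genes, the translation factors TUFM, TSFM, GFM and MTIF, the processing peptidase (PMPC) or the motor cofactor GRPEL. The rule found 44 of the 4195 listed genes, of which 3943 were protein-coding. They comprised 20 genes of the large ribosomal subunit, 10 named for the small subunit, 3 translation factors, 4 TOM genes, 5 TIM genes, 1 subunit of the processing peptidase and 1 GRPEL gene.

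The cells were KYSE30, an established human line from an esophageal squamous cell carcinoma, labelled wild type. One group was exposed to 100 uM acetylcholine (ACh), a neurotransmitter, and the other was the Control; both carry a time of 4 h, were grown in the same serum-supplemented medium, and had 3 libraries each, made from total RNA with a SMARTER mRNA-Seq kit. The labels name mouse as the organism, but 4183 of the 4195 gene IDs in the table are human. The study set stimulated against control cells. The authors' deposited table holds only genes whose unadjusted p was under 0.05, so genes of the rule that showed no such difference have no value here, and neither the listed share nor the direction of the remaining genes can be read from it. The values are normalised read counts whose sum over the listed genes was 10519515 to 10681118 in ACh and 11097307 to 11468978 in Control; the full depth is unknown. The step between neighbouring values was 1.05 to 1.13 in the ACh libraries and 0.768 to 1.01 in the Control libraries, so the groups differed in it without overlap, and its part in the results was not tested. Of 11 squamous epithelial markers 4 were listed (SOX2, TP63, KRT15 and DSG3), with sums of 8876 to 9350 in ACh and 9272 to 9517 in Control. These sums join opposite directions. SOX2 and KRT15 had lower means in ACh (log2 fold changes of -0.20 and -0.17), and TP63 and DSG3 higher ones (0.23 and 0.12). Of 15 markers of fibroblasts, immune cells and endothelium 3 were listed, COL1A1 at 133 to 147 in ACh and 146 to 193 in Control, LAPTM5 at 31.1 to 48.2 in ACh and 17.7 to 21.3 in Control, and EGFL7 at 818 to 970 in ACh and 1052 to 1081 in Control. None of these was at 0, the other markers have no value here, and their part in the results was not tested. The labels do not say whether the libraries of a group are from different cultures, so each p-value rests on a spread between libraries that may be technical. In bulk RNA, fewer cells with a transcript and less of it per cell cannot be told apart.

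Most of the 44 genes were lower in ACh, by small amounts. A gene is said to have risen or fallen where it passed both limma on the log2(value + 1) scale and the authors' deposited adjusted p, each at 0.05. The authors' p was held as deposited in every other setting, so only limma's part of a call could change there. By this rule 22 members fell, 5 rose and 17 missed at least one test. Among all 4195 listed genes 35.0% fell, 28.8% rose, 63.8% passed both in either direction and 99.6% passed limma, so that the authors' adjusted p decided nearly every call. The 22 that fell were 50.0% of the members, above the share of all listed genes, and the 5 that rose were 11.4%. The mean was lower in ACh for 35 of the 44 (79.5%), against 51.7% of all listed genes. The median log2 fold change of the members was -0.18, against -0.10 over all listed genes. It was -0.0976 with the libraries scaled to equal totals over the listed genes (7 member calls lost; all listed genes -0.02), and -0.04 with the trend over GC content removed (17 of 26 lost; all listed genes with a GC value -0.01). No member changed by 1.5-fold or more: the extremes were log2 fold changes of -0.56 for MRPL12 and 0.26 for GRPEL2. In 41 of the 44 genes (93.2%) the ACh and Control libraries did not overlap, which is near the share among all listed genes (93.0%). The fold changes differed from those in the authors' deposited table by at most 0.00487.

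**Figure D1:**
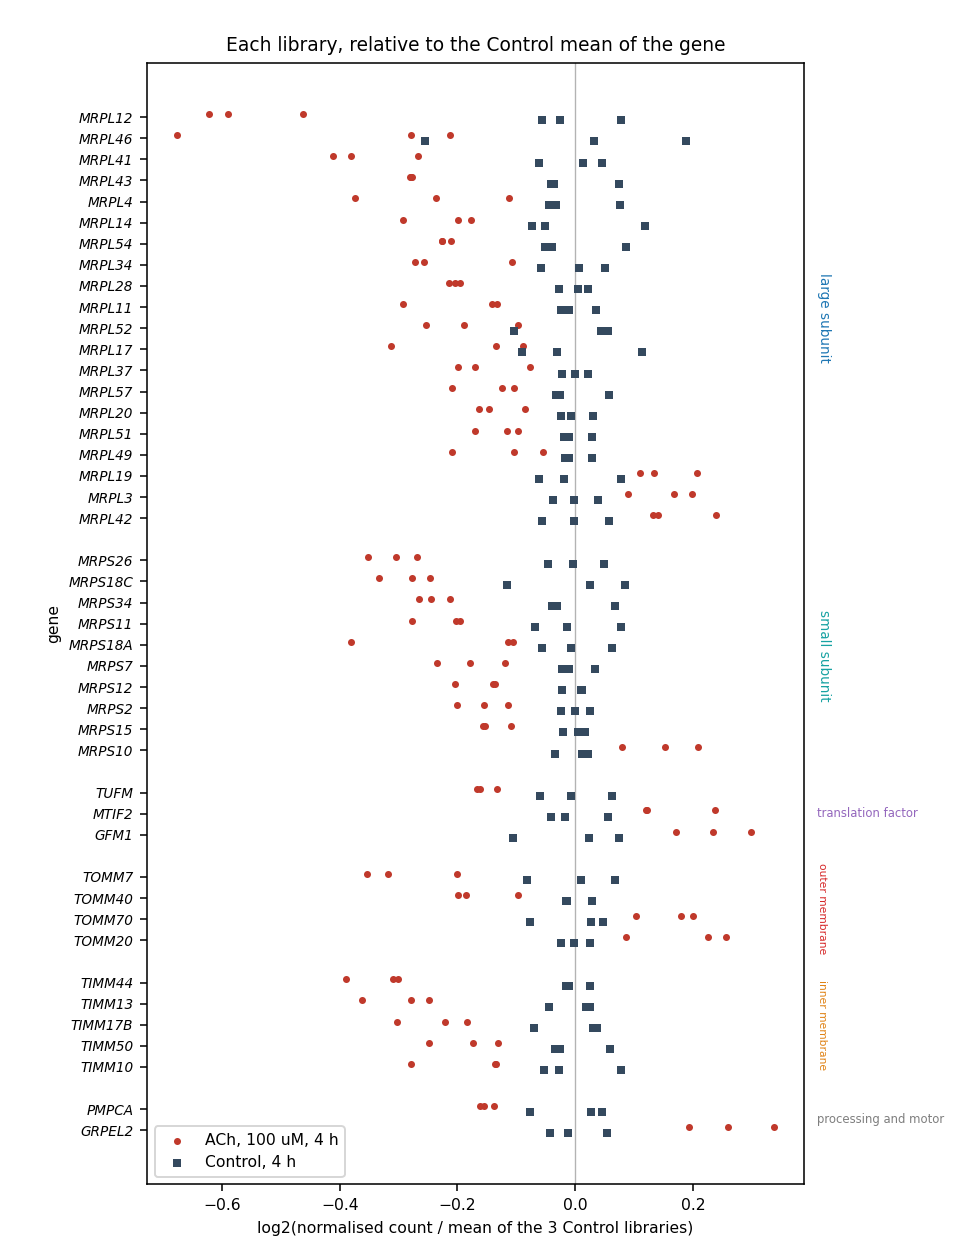
Every listed member in every library, as log2 of the normalised count over the mean of the 3 Control libraries of that gene (horizontal axis); red circles are the 3 ACh libraries, dark squares the 3 Control libraries, and genes are grouped by class and ordered by fold change. The ACh circles of 35 genes average left of the Control squares and those of 9 genes right of them, and the 2 colours overlap in MRPL46, MRPL52 and MRPL17.

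Among the 20 large subunit genes, 9 fell, 1 rose and 10 missed at least one test, with a median log2 fold change of -0.18. Of all listed genes 35.0% fell and 28.8% rose. With the GC trend removed, as described further on, 4 of these calls were kept, the median was -0.042 and MRPL4 stood at -0.0051. MRPL12, a stalk protein that is related to bacterial L7/L12 and helps recruit translation factors, had the largest change of all members (ENSG00000262814, chromosome 17, 81703357 to 81707526). Its normalised counts were 715, 655 and 640.4 in ACh, against 968, 1040.0 and 948 in Control. The highest ACh library was well below the lowest Control library, and the log2 fold change was -0.56 (SE 0.059, limma adjusted p = 1.00e-06). MRPL41, a protein with no bacterial counterpart (ENSG00000182154, chromosome 9, 137551199 to 137552555), had 1509.8, 1634 and 1478 in ACh, against 1984, 2028 and 1883 in Control. MRPL43, also without a bacterial counterpart (ENSG00000055950, chromosome 10, 100969458 to 100987515), had 969, 971 and 968 in ACh, against 1148, 1239 and 1143 in Control. The 3 ACh libraries of MRPL43 lay within a few counts of each other and below all Control libraries. MRPL4, related to bacterial L4, a protein of the exit tunnel (ENSG00000105364, chromosome 19, 10251901 to 10260045), had 1294, 1188 and 1079.5 in ACh, against 1367, 1474 and 1356 in Control. Its highest ACh library came close to its lowest Control library without reaching it. The log2 fold changes were -0.35 ± 0.044 for MRPL41, -0.28 ± 0.049 for MRPL43 and -0.24 ± 0.056 for MRPL4 (limma estimate ± SE, 3 libraries a group). The 5 other large subunit genes that fell were MRPL14, MRPL34, MRPL28, MRPL11 and MRPL37, with log2 fold changes between -0.22 (MRPL14) and -0.15 (MRPL37).

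The one large subunit gene that rose was MRPL3, whose bacterial relative L3 reaches towards the peptidyl transferase centre (ENSG00000114686, chromosome 3, 131462212 to 131502983). It had 2434, 2625 and 2569 normalised counts in ACh, against 2349, 2284 and 2227 in Control, and its log2 fold change was 0.15 (SE 0.038, limma adjusted p = 0.00157). All 3 ACh libraries were above all 3 Control libraries. MRPL19, related to bacterial L19, stood at 1024, 958 and 974 in ACh, against 876, 937 and 851 in Control. MRPL42, a protein without a bacterial counterpart, stood at 862, 806 and 801 in ACh, against 729, 760.0 and 703 in Control. Both were higher in every ACh library, with log2 fold changes of 0.15 and 0.17, but missed the authors' adjusted p, which was 0.1001 for MRPL19 and 0.0802 for MRPL42 in the authors' deposited table. The 8 other large subunit genes that did not pass both, MRPL46, MRPL54, MRPL52, MRPL17, MRPL57, MRPL20, MRPL51 and MRPL49, all had lower means in ACh, with log2 fold changes between -0.38 and -0.12. MRPL46 had the lowest normalised count, in total and per kilobase, of all members. Its replicates spread widest relative to the mean, 141 ± 23.3 in ACh and 183 ± 27.8 in Control (SD, n = 3 each).

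Among the 10 genes named for the small subunit, 6 fell, none rose and 4 missed at least one test, with a median log2 fold change of -0.19. The share of all listed genes that fell was 35.0%. With the GC trend removed 2 of these calls were kept, the median was -0.020 and MRPS7 stood at -0.013. MRPS26, a protein found in mitochondrial but not bacterial ribosomes (ENSG00000125901, chromosome 20, 3045945 to 3048254), had 1375, 1331 and 1409.7 normalised counts in ACh, against 1757, 1644 and 1694 in Control. The groups were far apart, and the log2 fold change was -0.31 (SE 0.043, limma adjusted p = 1.10e-05). MRPS34, also specific to mitochondrial ribosomes (ENSG00000074071, chromosome 16, 1771890 to 1773155), had 3025, 2916 and 2956 in ACh, against 3430.2, 3674 and 3408 in Control. MRPS7, related to bacterial S7, a protein of the head of the subunit (ENSG00000125445, chromosome 17, 75261674 to 75266373), had 2216, 2309 and 2132 in ACh, against 2566, 2469 and 2489 in Control. MRPS34 and MRPS7 were both lower in every ACh library, with log2 fold changes of -0.24 ± 0.036 and -0.18 ± 0.038 (estimate ± SE, 3 libraries a group). MRPS12, related to bacterial S12, which takes part in accurate decoding (ENSG00000128626, chromosome 19, 38930548 to 38933162), had 1796, 1878 and 1882 in ACh, against 2087, 2085 and 2038 in Control. Its log2 fold change was -0.16 ± 0.038, and MRPS2 and MRPS15, the other 2 that fell, had log2 fold changes of -0.16 and -0.14.

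The small subunit gene with a higher mean in ACh was MRPS10 (ENSG00000048544, chromosome 6, 42206801 to 42217865), at 1172, 1219.7 and 1114 in ACh, against 1063, 1071 and 1030.4 in Control. The groups did not overlap, and the log2 fold change was 0.15 and passed limma (adjusted p = 0.00845), but the authors' deposited table gives 0.0793 as its adjusted p. MRPS18C, MRPS11 and MRPS18A had lower means in ACh without passing both, with log2 fold changes of -0.28, -0.22 and -0.20. MRPS18A is one of 3 human relatives of bacterial S18 and sits in the large subunit of the mitochondrial ribosome in spite of its name. The listed ribosomal proteins were also divided by descent, a division made with the values known. Of 18 with a bacterial relative 10 fell, 1 rose and 7 did not pass both (median log2 fold change -0.18). Of 12 found only in mitochondrial ribosomes 5 fell, none rose and 7 did not pass both (median -0.20). With the GC trend removed the medians were -0.02 for those with a bacterial relative and -0.21 for those without one. Median GC content was 54.6% for the former and 51.8% for the latter. Among the members the removal moved genes of low GC content down and those of high GC content up, a limit described further on. The difference between these groups was not tested.

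The translation factors did not move together. With the GC trend removed, as described further on, TUFM stood at 0.018, GFM1 at 0.056 and MTIF2 at -0.044, and no call in this class was kept. TUFM, the mitochondrial elongation factor Tu that brings aminoacyl-tRNA to the ribosome (ENSG00000178952, chromosome 16, 28842411 to 28846408), had 4878, 4894 and 4995 normalised counts in ACh, against 5256, 5723 and 5452 in Control. GFM1, the elongation factor G that drives translocation (ENSG00000168827, chromosome 3, 158644278 to 158692575), had 901, 984 and 941 in ACh, against 843, 814 and 744 in Control. TUFM thus fell, with a log2 fold change of -0.15 ± 0.034, and GFM1 rose, with 0.24 ± 0.058 (estimate ± SE, 3 libraries a group). MTIF2, the initiation factor that places the initiator tRNA (ENSG00000085760, chromosome 2, 55236595 to 55269347), had 760.3, 825 and 761 in ACh, against 691, 728 and 680.3 in Control. It was higher in every ACh library (log2 fold change 0.16), but its adjusted p was 0.115 by the authors' deposited table.

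**Figure D2:**
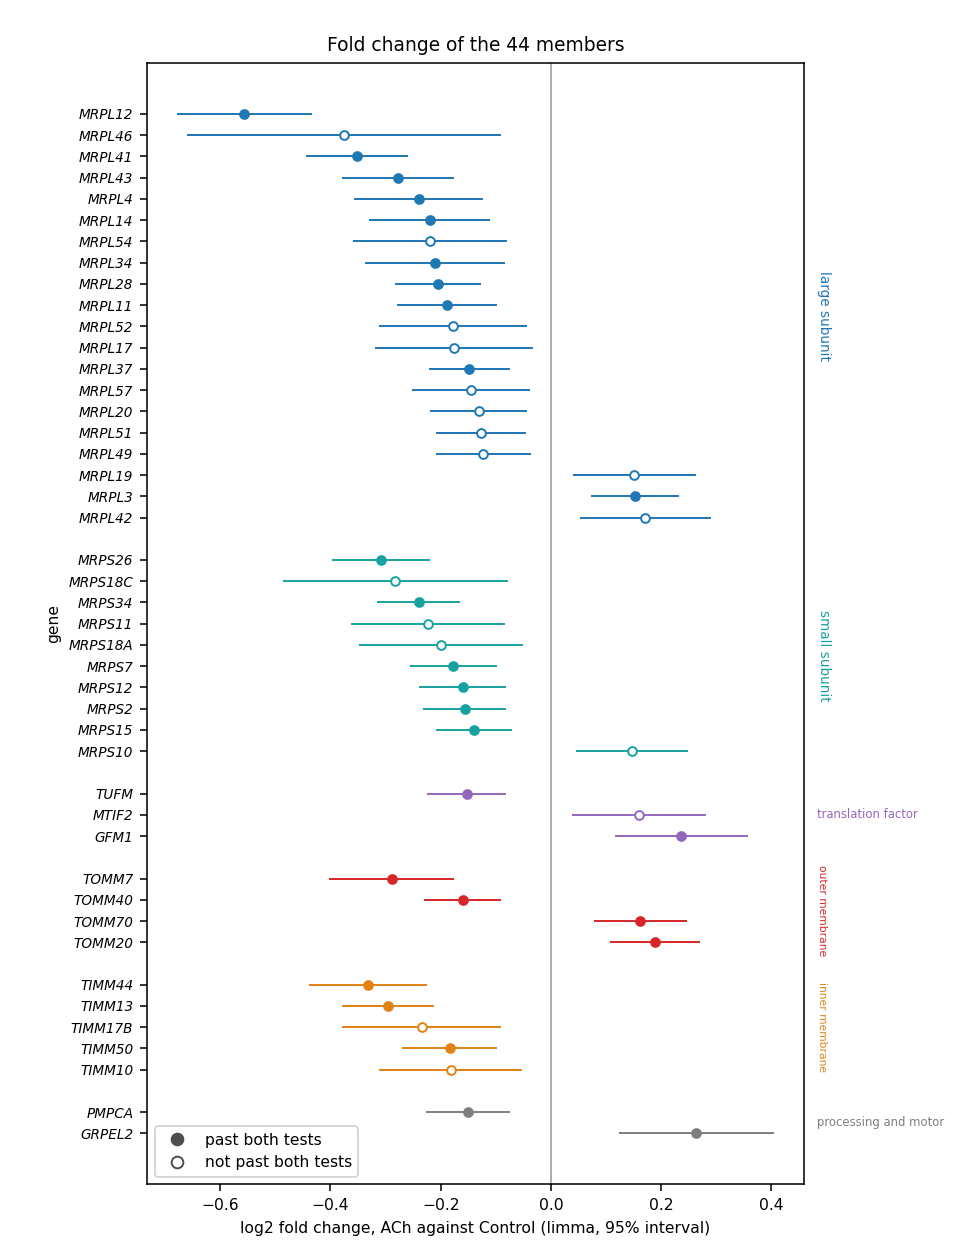
Log2 fold change of each member in ACh against Control (horizontal axis) with its 95% interval from limma on log2(value + 1), 3 libraries a group; filled points passed both tests and open points did not. Filled points left of 0 are the 22 genes that fell, and the 5 right of 0 are MRPL3, GFM1, TOMM70, TOMM20 and GRPEL2.

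In the outer membrane the 2 listed import receptors rose while the pore and a small subunit fell. With the GC trend removed, as described further on, TOMM7 alone of the 3 with a GC value kept its call; TOMM20 stood at -0.0092 and TOMM40 at 0.097, and TOMM70 had no GC value. TOMM20, the receptor that binds targeting sequences at the N terminus of precursors (ENSG00000173726, chromosome 1, 235109336 to 235128936), had 4268, 4359 and 3874 normalised counts in ACh, against 3588, 3717 and 3647 in Control. TOMM70, the receptor for carrier precursors delivered by cytosolic chaperones (ENSG00000154174, chromosome 3, 100363431 to 100401398), had 2486, 2449 and 2324 in ACh, against 2202, 2234 and 2052 in Control. All ACh libraries of both genes were above all Control libraries. TOMM20 rose by 0.19 on the log2 scale (SE 0.039, limma adjusted p = 3.82e-04) and TOMM70 by 0.16 (SE 0.040, limma adjusted p = 0.00153). TOMM40, the beta barrel that forms the pore (ENSG00000130204, chromosome 19, 44890569 to 44903689), had 4724, 5020.1 and 4681 in ACh, against 5314, 5481 and 5318 in Control. TOMM7, a small subunit that modulates the complex (ENSG00000196683, chromosome 7, 22812628 to 22822852), had 905, 884 and 982 in ACh, against 1066, 1183 and 1136 in Control. Both fell, TOMM40 with a log2 fold change of -0.16 ± 0.034 and TOMM7 with -0.29 ± 0.055 (estimate ± SE), and in neither did the groups overlap.

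All 5 listed TIM genes had lower means in ACh, and 3 of them fell. Of all listed genes 51.7% had lower means and 35.0% fell. The 3 that fell lie on chromosome 19, where 92.1% of the 406 listed genes were lower. With the GC trend removed, as described further on, TIMM44 alone kept its call, while TIMM13 stood at -0.081 and TIMM50 at 0.032. TIMM44, which anchors the import motor to the TIM23 channel (ENSG00000104980, chromosome 19, 7926718 to 7943920), had 820.3, 816 and 771 normalised counts in ACh, against 999.9, 1003 and 1028 in Control. It had the largest fall among the import genes, and its log2 fold change was -0.33 (SE 0.052, limma adjusted p = 3.20e-05). TIMM50, the TIM23 subunit that receives precursors from the outer membrane (ENSG00000105197, chromosome 19, 39480412 to 39493785), had 1723, 1868 and 1813 in ACh, against 2130.2, 1997 and 2010.1 in Control. TIMM17B, a channel subunit of the same complex (ENSG00000126768, chromosome X, 48893447 to 48898143), had 454, 429 and 465 in ACh, against 539.9, 543 and 504 in Control. TIMM50 fell, with a log2 fold change of -0.18 ± 0.041, while TIMM17B, at -0.23 ± 0.069, missed the limit in the authors' deposited table (0.0519 after adjustment). The 2 others are small chaperones of the intermembrane space that escort hydrophobic precursors. TIMM13 (ENSG00000099800, chromosome 19, 2425624 to 2427894) had 1765, 1802 and 1666 in ACh, against 2169, 2179 and 2075 in Control, and fell with a log2 fold change of -0.30 ± 0.040. TIMM10 (ENSG00000134809, chromosome 11, 57528463 to 57530803) had 676, 612 and 677 in ACh, against 716, 784 and 729 in Control; its log2 fold change was -0.18 ± 0.062 and it did not pass both tests.

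In the matrix, PMPCA, the alpha subunit of the peptidase that cuts off targeting sequences (ENSG00000165688, chromosome 9, 136410570 to 136423761), had 2684, 2730.1 and 2697 normalised counts in ACh, against 2849.8, 3062 and 3100.4 in Control. GRPEL2, a nucleotide exchange factor of the mitochondrial Hsp70 in the import motor (ENSG00000164284, chromosome 5, 149345430 to 149354583), had 570.5, 602 and 545 in ACh, against 495, 463 and 472 in Control. PMPCA fell, with a log2 fold change of -0.15 ± 0.037, and GRPEL2 showed the largest rise of all members; its log2 fold change was 0.26 (SE 0.068, limma adjusted p = 0.00188). The groups did not overlap in either gene. The coordinates above are those of the table, which names no genome build.

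Summed over the 44 genes, the members held 68244 to 70534 normalised counts in ACh libraries and 75108 to 76819 in Control libraries, which was 0.649% to 0.662% of the listed total in ACh and 0.670% to 0.680% in Control. These sums weigh highly expressed genes most. The 20 large subunit genes summed to 25753 ± 423 in ACh and 28534 ± 307 in Control, and the 10 genes named for the small subunit (MRPS18A included) to 16042 ± 258 in ACh and 18067 ± 89.6 in Control (SD, n = 3 each). The 5 TIM genes summed to 5453 ± 68.0 in ACh and 6469 ± 109 in Control, the lowest ratio of the 6 classes (0.843). The 4 TOM genes summed to 12318 ± 430 in ACh and 12313 ± 262 in Control, a ratio of 1.00, since the 2 receptors and the 2 other genes moved in opposite directions. With the libraries scaled to equal totals over the listed genes, 15 members were past both tests and lower, 5 higher, and the calls of MRPL34 (-0.131), MRPL37 (-0.0682), MRPS12 (-0.0804), MRPS2 (-0.0768), MRPS15 (-0.0591), TUFM (-0.0731) and PMPCA (-0.0710) ended without a change of sign. In the sums of ribosomal and TIM genes every ACh library was below every Control library, and in the TOM genes the groups overlapped.

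**Figure D3:**
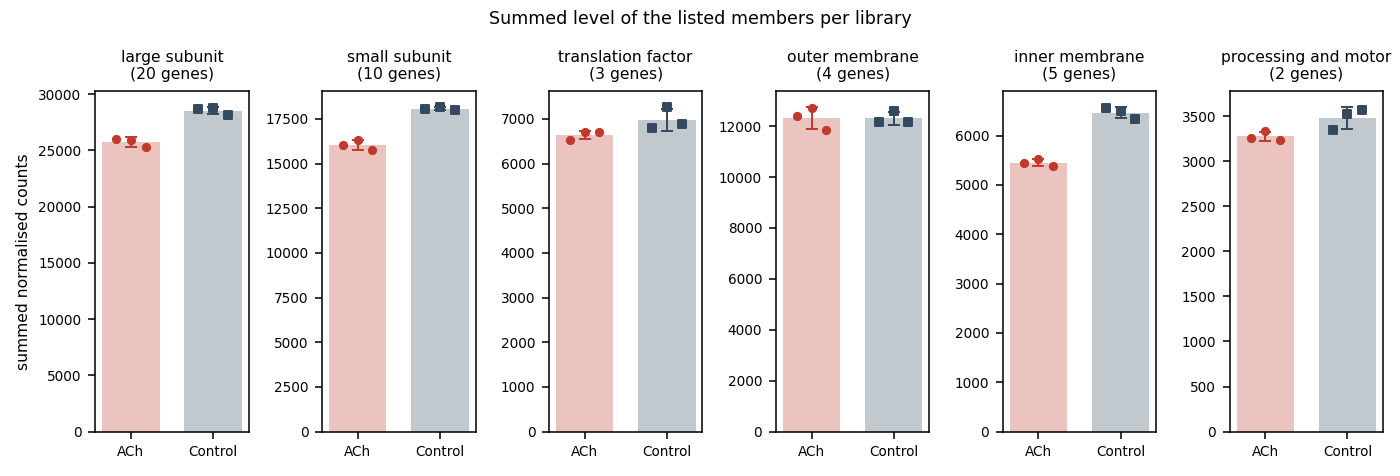
Summed normalised counts of the listed members of each class (vertical axes, from 0, with a scale of their own in each panel) in ACh and Control; bars are means, error bars SD over 3 libraries, and points the libraries. The ribosomal and TIM sums of all ACh libraries are below those of all Control libraries, and the TOM sums of both groups overlap.

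Levels of different genes can be compared only per length. Per kilobase of the gene length in the table, MRPS34 had the highest level of the members, 2703 normalised counts in ACh and 3194 in Control, followed by TUFM with 2168 in ACh and 2412 in Control. The lowest were MRPL46, with 21.9 in ACh and 28.4 in Control, MRPS18C, with 41.0 in ACh and 49.9 in Control, and MRPL42, with 50.2 in ACh and 44.6 in Control. Within the TOM complex the pore gene TOMM40 stood at 1332 in ACh and 1488 in Control and the receptor gene TOMM20 at 1176 in ACh and 1031 in Control, so that the distance between them per kilobase was smaller in ACh. Replicates were close: the SD was under 10% of the mean for 42 of the 44 genes in ACh and for 43 in Control. MRPL46 was above 10% in both groups and MRPS18A in ACh.

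The direction of the members went with base composition and gene length. GC content was read from the mouse gene of the same symbol, since no human sequence was used, and was found for 43 of the 44 genes, all but TOMM70. The 8 higher genes with a value lay between 44.4% and 51.1% GC (median 46.1%), and the 35 lower genes between 42.3% and 61.5% (median 54.0%), with 25 of the 35 above every higher gene. Across the 43 genes Spearman's rho between the log2 fold change and GC content was -0.42, and across the 3676 listed genes with a GC value it was -0.76; genes share the same 6 libraries and are not independent replicates. Higher members were also longer, with a median gene length of 4419 bases against 2539 bases for the lower ones. Spearman's rho between the log2 fold change and gene length was 0.30 across the 43 genes and 0.43 across the 3676 listed genes. The 8 members on chromosome 19, where 92.1% of the 406 listed genes were lower in ACh, were all lower, and their median GC content was 58.3%. The 3 members on chromosome 3 (MRPL3, GFM1 and TOMM70) and the 2 on chromosome 2 (MRPL19 and MTIF2) were all higher, where 66.2% and 72.6% of the listed genes were. Members on other chromosomes went with the listed majority or against it. All members on chromosomes 11, 16, 9, 17 and 20 were lower. The listed genes there were lower in 63.7%, 78.3%, 61.7%, 76.1% and 76.0% of cases. GRPEL2 on chromosome 5 was higher, where 67.9% of the listed genes were. Others went against the majority. MRPL57 on chromosome 13, MRPS18C on chromosome 4, MRPL43 on chromosome 10 and TIMM17B on chromosome X were lower in ACh, where 92.2%, 78.7%, 70.3% and 64.0% of the listed genes were higher. MRPL46 and MRPS11 on chromosome 15 were also lower, where 64.8% of the listed genes were higher.

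**Figure D4:**
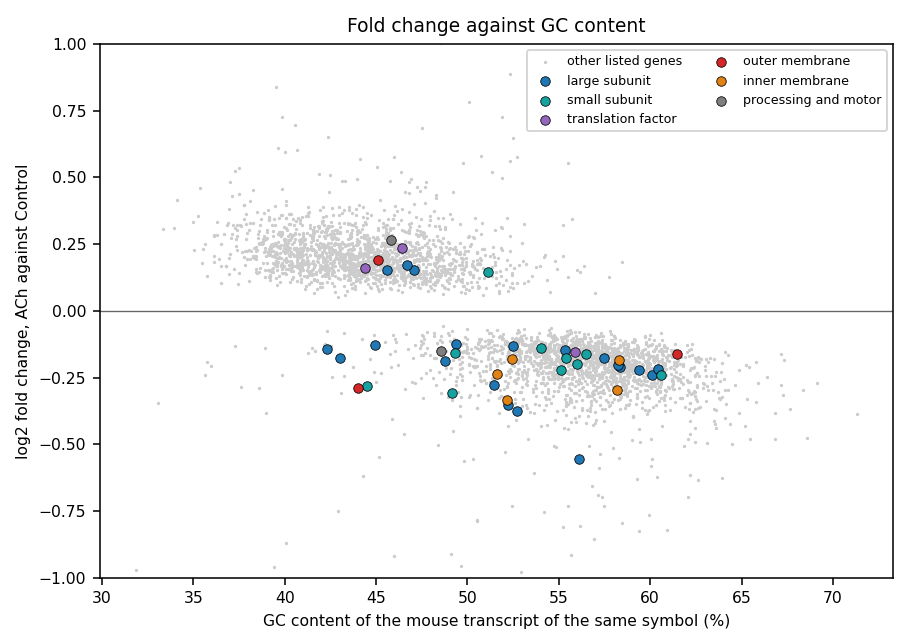
Log2 fold change in ACh against Control (vertical axis, cut at -1 and 1, which leaves out 30 of the 3633 other listed genes with a GC value) against the GC content of the mouse transcript of the same symbol (horizontal axis); coloured points are the 43 members with a value, grey points the other listed genes. The table lists only genes with an unadjusted p under 0.05, the band around 0 is empty, and all higher members lie at or below 51.1% GC.

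With the trend over GC content removed from each library, 9 of the 26 members past both tests with a GC value kept their call and sign, 6 lost the call in the same direction and 11 had the opposite sign. The same counts over all listed genes were 328 kept, 1177 lost in the same direction and 955 of opposite sign, so turned signs were common in the whole table. Of all 3676 listed genes with a GC value 15.8% passed limma after this removal, and 15 of the 43 members (34.9%) did, 14 lower and 1 higher. Past both tests in the deposited values and lower were 36.8% of these listed genes, and past both after the removal 6.34% were lower and 4.16% higher. The 9 members that kept their call were all lower: MRPL12, MRPL41, MRPL43, MRPL11, MRPS26, MRPS2, TOMM7, TIMM44 and PMPCA. MRPL12 then had a log2 fold change of -0.38, MRPS26 of -0.38, TIMM44 of -0.26 and TOMM7 of -0.50. TOMM7, MRPS26, MRPL11 (-0.28), MRPS2 (-0.22) and PMPCA (-0.25) were lower than before the removal. MRPL12, MRPL41, MRPL43 and TIMM44 were less low than before it. Among the 43 members the removal turned the relation to GC content round: Spearman's rho was 0.51 after it, against 0.02 over all listed genes with a GC value, so that members of low GC content were moved down and those of high GC content up past the level of no relation. The kept calls and turned signs carry this limit. The 6 that passed limma here but had not passed both tests on the deposited values were MRPL17, MRPL57, MRPL51, MRPL49 and MRPS18C, all lower, and MRPS10, which was higher at 0.17 (limma adjusted p = 0.0212). None of the 4 genes that rose and had a GC value kept the call: TOMM20 stood at -0.0092, MRPL3 at -0.04, GFM1 at 0.056 and GRPEL2 at 0.074. MRPS34, TUFM and TIMM50 stood at 0.0025, 0.018 and 0.032, near 0, and TOMM40 at 0.097. After the removal 29 of the 43 members (67.4%) had a lower mean in ACh, against 52.8% of the listed genes with a GC value, and their median was -0.04, against -0.01. The removal rests on mouse sequence and on a table selected for a difference.

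**Figure D5:**
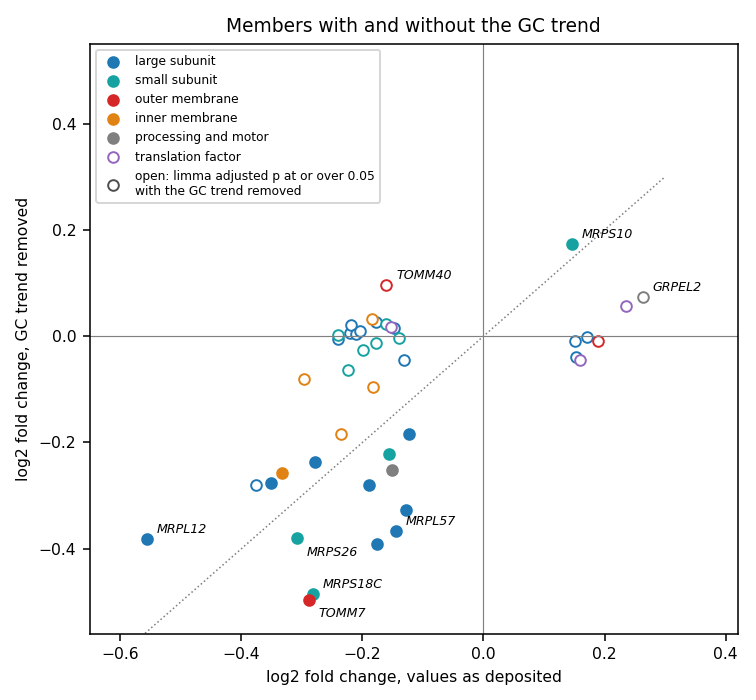
Log2 fold change of the 43 members with a GC value in ACh against Control, from the deposited values (horizontal axis) and with the GC trend removed per library (vertical axis); the dotted line marks equal values, and filled points passed limma at an adjusted p of 0.05 after the removal. MRPL12 stays low on both axes, TOMM7, MRPS18C and MRPS26 are among the members that are lower after the removal, and MRPS10 alone among the members right of 0 is filled.

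Some members lie next to or across other listed genes. MRPL46 and MRPS11, a protein of each subunit, lie on opposite strands of chromosome 15 with 33 bases between them, and both had lower means in ACh without passing both tests. MRPS12 overlaps SARS2, the mitochondrial seryl-tRNA synthetase, on the opposite strand, and SARS2 had a log2 fold change of -0.58 at a low level, 40.7, 45.3 and 46.1 normalised counts in ACh and 68.1, 74.1 and 57.6 in Control. In all, 9 members overlap another listed gene, 7 of them on the opposite strand, and 5 of the 9 had passed both tests (MRPL34, MRPL28, MRPS12, MRPS2 and TIMM13). Whether reads were counted by strand is not stated, so reads of such pairs could not be told apart and these values are uncertain.

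Other genes of mitochondrial translation and import went both ways. Of 14 symbols of translation factors and translation activators outside the rule 4 were listed, and these rose, as did 28.8% of all listed genes. GUF1, an elongation factor that can move the ribosome back, and PTCD3, which is associated with the small subunit, rose by 0.23 and 0.23 on the log2 scale. MRRF, the ribosome recycling factor, and LRPPRC, which stabilises mitochondrial messenger RNA, rose by 0.17 and 0.17. With the GC trend removed GUF1 stood at 0.0097, PTCD3 at 0.012 and LRPPRC at 0.0068, and MRRF alone kept its call. Of 10 listed assembly factors of the mitochondrial ribosome 6 fell and 2 rose, and none of these calls was kept with the GC trend removed. For this list and those below, the shares over all listed genes were 35.0% that fell and 28.8% that rose. The GTPases GTPBP6 and MTG2 had log2 fold changes of -0.32 and -0.23, and the RNA-binding proteins FASTKD2 and GRSF1 of 0.30 and 0.15. Of the 2 listed mitochondrial aminoacyl-tRNA synthetases VARS2 fell, with a log2 fold change of -0.19, and SARS2 did not pass both. In mitochondrial transcription and DNA maintenance 4 of 7 listed genes fell, TOP1MT and HSD17B10 the most (-0.24 and -0.21), and 3 rose, TRMT10C, a subunit of mitochondrial RNase P, by 0.31 and TFAM, which packages mitochondrial DNA, by 0.21 among them. The RNA of the large mitochondrial ribosomal subunit, MT-RNR2, had 116319.9, 111939 and 110403 in ACh, against 120402, 133468 and 123821 in Control. It fell, with a log2 fold change of -0.16, but was not called without ACh replicate 1 (-0.178), ACh replicate 2 (-0.150) or ACh replicate 3 (-0.140), or at equal totals over the listed genes (-0.0763). Of 15 listed mitochondrially encoded genes 14 had lower means in ACh, against 51.7% of all listed genes.

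Among 6 listed import partners outside the rule 3 fell and 2 rose. Over all listed genes, for this list and those below, 35.0% fell and 28.8% rose. GFER, the oxidase of the intermembrane space import pathway, and ROMO1, a small inner membrane protein whose groups overlapped, had log2 fold changes of -0.33 and -0.19 (ROMO1 was not called at equal totals over the listed genes, -0.112), and MTX3, a metaxin of the outer membrane, rose by 0.24. HSP90AA1, a cytosolic chaperone of precursors, rose by 0.10 with overlapping groups, and lost its call in the absence of ACh replicate 1 (0.0991), ACh replicate 2 (0.0704), Control replicate 1 (0.104) or Control replicate 3 (0.0915). Of 10 listed matrix and inner membrane chaperones and proteases 5 fell and 1 rose. CLPP and LONP1, both matrix proteases, had log2 fold changes of -0.25 and -0.20, and HSPD1, the matrix chaperonin, rose by 0.11, also with overlapping groups; this call was lost in the absence of ACh replicate 1 (0.0975), ACh replicate 2 (0.0739), Control replicate 1 (0.0954) or Control replicate 3 (0.0900). Adjusting limma's p over 11193 tests, the number the authors' adjustment implies, likewise ended the calls of HSP90AA1, HSPD1 and MT-RNR2. Of 3 listed genes of the cristae CHCHD6 and C19orf70 (MICOS13) fell, with log2 fold changes of -0.28 and -0.22, and OPA1, the inner membrane fusion GTPase, rose by 0.19. Of 3 listed regulators of mitochondrial genes the receptor ESRRA fell (-0.25), and GABPA and GABPB1, the subunits of one transcription factor, rose by 0.29 and 0.29. Of the genes in these lists that passed both and had a GC value, MRRF alone kept its call and sign with the GC trend removed (0.13, limma adjusted p = 0.0489).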

How the data were processed

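The deposited signal is a normalised read count per gene. All values of a library are whole multiples (tolerance 0.1) of a single step, from which a division by 1 factor per library was inferred; no source states it. Per the file headers, the table also carries log2 fold changes, p-values and adjusted p-values of the authors' own comparison. The adjusted p-values imply 11193 tests. Bowtie 0.12.2 and the builds mm8 and mm10 stand in the submitters' processing notes. A human build and a counter were not given in the sources used here.

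Groups came from the labels. limma 3.58.1 (R 4.3.3, limma-trend, group as the only term) was fitted on log2(value + 1) of all 4195 listed genes without a filter, with Benjamini-Hochberg adjustment. Since limma called 99.6% of the listed genes, it adds no independent support to the authors' calls (63.8%), which used these libraries too. The limma test was tested on simulated data. For GC content, same-symbol mouse genes were looked up in GENCODE M21 (longest protein-coding transcript; 3676 genes, 87.6%), and its trend was removed per library by local regression with a span of 0.3. The alternatives tried comprised equal totals or medians over the listed genes, omission of each library, a filter at the lower quartile of the mean (566), a pseudocount of 0.1, a block for the replicate number, each call rule alone and adjustment over 11193 tests. The members, gene lists and tests were chosen with earlier results of these data known. The values of each library are given for the 4 largest changes past both tests in each ribosomal subunit, for all members higher in ACh and for all members of the smaller classes; of each further list up to 2 genes per direction are named, with LRPPRC and MRRF added after their values were seen. Tables and figures were made with pandas 2.3.3 and Matplotlib 3.10.9 in Python 3.11.15.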

Additional observations from a re-analysis of the deposited data

How the results depend on the processing

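The authors' adjusted p, made from all 6 libraries, was held constant in every setting, so kept calls say little about stability. Leaving out each library in turn ended none of the 27 calls among the members by limma, with 22 lower and 5 higher each time, 15 lower ribosomal and 6 lower import and processing genes each time, 2647 to 2668 listed genes past both tests and a median member log2 fold change of -0.183 to -0.165. No call among the members changed with the pseudocount of 0.1, equal medians, the authors' adjusted p alone or adjustment over 11193 tests. The lower-quartile filter took out 6 members, among them GRPEL2, 1 of the 5 that rose. Equal totals over the listed genes moved the median of the members to -0.0976 and that of all listed genes to -0.02; 20 of the 27 calls remained and no member changed sign, and the calls of MRPL34, MRPL37, MRPS12, MRPS2, MRPS15, TUFM and PMPCA ended. limma alone called 35 members lower and 9 higher, 26 ribosomal genes lower and 4178 listed genes. With the GC trend removed, 9 members were lower and 0 higher past both tests, 6 of the lower ones ribosomal and 3 import and processing genes, with 386 listed genes past both and a median of -0.0398; by limma's adjusted p alone 1 member was higher (MRPS10), and 2 were at an unadjusted p under 0.05. With the replicate block added to this removal the counts were 9, 1 (TOMM40), 6 and 3, with 495 listed genes and the same median. Under both removals the sign turned, with equal values, for MRPL14 (0.00581), MRPL54 (0.0213), MRPL34 (0.00470), MRPL28 (0.0106), MRPL52 (0.0262), MRPL37 (0.0146), MRPL19 (-0.00998), MRPL3 (-0.0398), MRPL42 (-0.00142), MRPS34 (0.00255), MRPS12 (0.0231), TUFM (0.0180), MTIF2 (-0.0440), TOMM40 (0.0971), TOMM20 (-0.00921), TIMM50 (0.0319), VARS2 (0.0282), ROMO1 (0.0510), HSP90AA1 (-0.104), LONP1 (0.000393), HSPD1 (-0.0614), OPA1 (-0.0250) and ESRRA (0.0156). The cause was not tested.

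The replicate block alone left 22 lower and 5 higher members and 2677 listed genes, the same counts as without it. Libraries with the same number correlated in their deviations from the group means by 0.0471 to 0.0821 over the listed genes, each best with its own number, which is a hint from the data and not from the design. Over the members alone the same-number values were -0.296, -0.0644 and -0.326, and other-number values reached 0.347. The libraries were not treated as pairs. The planned edgeR and DESeq2 alternatives were not run, because too few low values stood in the Control columns to recover reads. With an unknown depth, no counting error can be given.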
